A study of Homo sapiens with 12 samples.

Results

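A set of 8 genes of sodium-proton exchange and of its attachment to the cell cortex was examined in MDA-MB-231 cells, a widely used triple-negative line derived from human breast cancer. They were the exchangers SLC9A3, SLC9A5, SLC9A7 and SLC9A8, the exchanger cofactor CHP1, the scaffold NHERF1, and the membrane-actin linkers EZR and MSN. The members were taken by symbol, all 8 among the 40929 gene symbols of the tables, and all 8 were among the 15104 genes that passed the filter on low counts. RNA sequencing was done after 48 h of treatment on 12 libraries in 4 groups of 3. The NG group had 10 mM glucose and no cariporide, CAR had 10 mM glucose with 25 µM cariporide, LG had 5 mM glucose and no cariporide, and LGCAR had 5 mM glucose with 25 µM cariporide. Cells of every group were labelled wild type and epithelial, and were kept in RPMI with serum. Whether libraries of 1 group were grown as separate cultures is not stated, and p-values may therefore reflect technical spread only.

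Sodium-proton exchangers of the SLC9 family move protons out of the cytoplasm, or into organelles, in exchange for sodium or potassium, and so set the pH on both sides of a membrane. Cariporide is an inhibitor of sodium-proton exchange. SLC9A3 (NHE3) works at the apical face of absorptive epithelia, SLC9A5 (NHE5) is best known from neurons, and SLC9A7 (NHE7) and SLC9A8 (NHE8) are found in the Golgi and its neighbouring compartments. CHP1 is a calcium-binding protein that the plasma membrane exchangers need for activity, NHERF1 is a PDZ scaffold that joins membrane proteins such as SLC9A3 to ezrin, and ezrin (EZR) and moesin (MSN) tie membrane proteins to actin.

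None of the 8 members was called in any of the 5 comparisons between groups, nor in cariporide or glucose averaged over the other factor, nor in their interaction. A call is an adjusted p under 0.05 in the quasi-likelihood test of edgeR, adjusted by Benjamini and Hochberg over all tested genes. Of the 40 pairs of a member and a comparison, 5 had an unadjusted p under 0.05, 30 had a log2 fold change within 0.1 of zero, and the lowest adjusted p was 0.0728. The log2 fold changes farthest from zero were those of SLC9A7, the Golgi exchanger, in LGCAR against NG and of SLC9A5 in LG against NG, each 0.38. SLC9A7, CHP1 and MSN had higher levels in every LGCAR library than in any NG library, and NHERF1 had lower ones. Of all tested genes, 38.2% had no overlap of these groups in either direction. Over all tested genes 8.75% were called in LGCAR against NG, while LG against NG had 1.73%, LGCAR against CAR 1.65%, LGCAR against LG 0.00662% and CAR against NG 0%. Averaged glucose had 9.73%, and averaged cariporide and the interaction 0.00662% each. At an unadjusted p under 0.05 were 2 of 8 members and 28.9% of all genes in LGCAR against NG, 2 and 11.9% in LGCAR against LG, 1 and 15.2% in LG against NG, 0 and 17.6% in LGCAR against CAR, and 0 and 4.53% in CAR against NG. Averaged cariporide had 1 member and 15.3% of all genes, averaged glucose 1 and 26%, and the interaction 0 and 3.13%. DESeq2 called 1 member, SLC9A7 in LGCAR against NG, where it called 14.9% of the genes it tested, and none elsewhere. A fit to the NG and LGCAR libraries alone called SLC9A7 and CHP1, beside 24.3% of its genes. With the replicate number as a block no member was called, and the genes called were 682 in place of 1322 in LGCAR against NG and 147 in place of 261 in LG against NG.

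The libraries held 18069004 to 24837409 counts each, with a common biological coefficient of variation of 6.94%. Ribosomal RNA took 7.10% to 11.5% of the counts, lowest in CAR 1 and highest in NG 1 and LGCAR 3. Markers of the mesenchymal-like state of this line were abundant, with a mean CPM (counts scaled to a common library size with TMM factors) of 1719.8 for VIM and 689 for CD44, and the keratins KRT8 and KRT18 were at 467 and 378 CPM. Of the receptors low in triple-negative cells, PGR had no counts and ESR1 0 to 4 counts, while ERBB2 had a mean of 59.4 CPM, and the epithelial genes CDH1 and EPCAM had 1.54 and 11.7 CPM. Of the markers of blood cells CD3E had no counts, PTPRC 1 to 8 counts and CD68 a mean of 61.7 CPM. Of those of endothelium CDH5 had 0 to 2 counts, VWF 0 to 7 and PECAM1 31 to 57, and of those of fibroblasts and mural cells COL3A1 and DCN had at most 3 counts, COL1A1 had 137 to 229 and PDGFRB 195 to 284.

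Levels of the members were compared with one another as CPM per kilobase of the principal transcript over all 12 libraries. MSN stood highest at 167 ± 4.32 CPM per kilobase, and EZR followed at 99.6 ± 2.70 (SD, n = 12 each). NHERF1 at 24.9 ± 1.13, CHP1 at 22.7 ± 2.59 and SLC9A7 at 20.6 ± 3.03 CPM per kilobase came next, and these neighbours overlapped in range over the libraries. The remaining exchangers were far lower, SLC9A8 at 5.44 ± 0.377, SLC9A3 at 1.63 ± 0.167 and SLC9A5 at 0.959 ± 0.154 CPM per kilobase. With the union of all exons as length, SLC9A7 was at 7.86 CPM per kilobase and SLC9A8 at 4.77.

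Among the transcripts of the 4 exchangers of the set, SLC9A7 made up the greatest share in every group. Its share of their summed CPM per kilobase was 69.2% ± 0.661 in NG and 72.1% ± 3.10 in CAR at 10 mM glucose, and 70.4% ± 1.65 in LG and 75.0% ± 0.761 in LGCAR at 5 mM (SD, n = 3 libraries). SLC9A8 followed, with 16.9% in LGCAR to 21.3% in NG. SLC9A3 held 5.20% to 6.12% and SLC9A5 2.95% to 4.28% over the group means. With the exon union the shares of SLC9A7 were lower, at 52.6%, 56.2%, 54.3% and 59.9% in NG, CAR, LG and LGCAR. The shares were not tested.

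**Figure D1:**
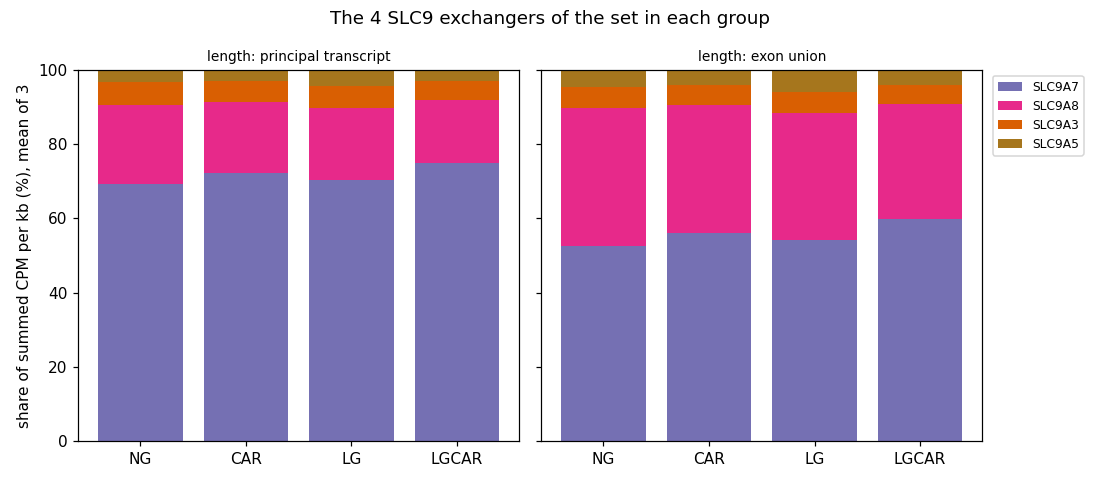
Shares of the 4 SLC9 exchangers of the set in their summed CPM per kilobase (y axis, percent, mean of 3 libraries) in each group, with the length of the principal transcript on the left and of the exon union on the right. SLC9A7 takes 69.2% to 75.0% on the left and 52.6% to 59.9% on the right.

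SLC9A7 lies on chromosome X at 46599251 to 46759118 on the minus strand (RefSeq, GRCh38.p14), and its exons overlap no other gene in GENCODE 29. Its level was 74.9, 69.6 and 63.8 CPM in NG 1 to 3 and 68.2, 89.5 and 90.3 CPM in CAR 1 to 3. In the libraries with 5 mM glucose it was 83.6, 74.9 and 60.1 CPM in LG 1 to 3 and 90.6, 89.8 and 91.2 CPM in LGCAR 1 to 3. All 3 LGCAR libraries lay above every NG and every LG library, while CAR 1 lay within the range of NG, and CAR 2 and CAR 3 above it. Of all genes, 38.2% had no overlap of LGCAR with NG and 21.3% none with LG. Against NG the log2 fold change was 0.38 in LGCAR (SE 0.125, 95% interval of the fold 1.08 to 1.58, edgeR adjusted p = 0.0728) and 0.25 in CAR (SE 0.124, interval 0.986 to 1.44, adjusted p = 0.894). LGCAR against LG gave 0.31 (SE 0.124, interval 1.03 to 1.499, edgeR adjusted p = 0.401), LG against NG 0.07 and LGCAR against CAR 0.13.

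SLC9A7 was called in LGCAR against NG under 2 of the alternatives. DESeq2 gave a log2 fold change of 0.37 with an adjusted p of 0.0166. The edgeR fit to the NG and LGCAR libraries alone gave 0.38 with an adjusted p of 5.48e-05, and in that fit 3542 genes were called against 1322 with all 12 libraries. Over all alternatives the log2 fold change lay between 0.33 and 0.43, and the edgeR or DESeq2 adjusted p between 5.48e-05 and 0.253. For the other contrasts single libraries moved the value. Without LG 3 the log2 fold change of LGCAR against LG was 0.19. Without CAR 1 that of CAR against NG was 0.37 and that of LGCAR against CAR 0.01, and LG against NG ran from -0.04 without LG 1 to 0.19 without LG 3.

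Averaged over both glucose levels, the log2 fold change of SLC9A7 with cariporide was 0.28 (SE 0.0879, interval of the fold 1.06 to 1.39, edgeR adjusted p = 0.277), and 0.00662% of all genes were called. Without CAR 1 it was 0.34 with an edgeR adjusted p of 0.0269, and in that fit 1300 genes (8.5%) were called against 1 with all libraries. The interaction of cariporide and glucose had a log2 value of 0.06 for SLC9A7, with an edgeR adjusted p of 0.9999. The 3 libraries with the lowest SLC9A7, LG 3, NG 3 and CAR 1, were also those with the lowest share of ribosomal RNA, at 7.91%, 7.83% and 7.10%. CAR 3, with 7.98%, had 90.3 CPM. Any part of this in the result was not tested.

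CHP1 lies on chromosome 15 at 41231268 to 41281887 on the plus strand and overlaps no other gene's exons. It was at 74.4, 72.8 and 62.3 CPM in NG libraries, 62.2, 79.0 and 79.9 in CAR, 80.2, 75.2 and 64.4 in LG and 88.2, 81.6 and 84.5 in LGCAR libraries, for replicates 1 to 3. Every LGCAR library lay above every library of the other 3 groups, which overlapped one another. Of all genes, 38.2% had no overlap of LGCAR with NG, 25.3% none with CAR and 21.3% none with LG. LGCAR against NG had a log2 fold change of 0.28 (SE 0.103, interval of the fold 1.04 to 1.42, edgeR adjusted p = 0.0948), LGCAR against CAR 0.20 (adjusted p = 0.321) and LGCAR against LG 0.21 (adjusted p = 0.431). CAR against NG gave 0.08 and LG against NG 0.07. In the fit to the NG and LGCAR libraries alone the edgeR adjusted p of CHP1 was 0.00231 at a log2 fold change of 0.27, and over the alternatives the log2 fold change ran from 0.20 to 0.32. Leaving out LG 3 brought LGCAR against LG to 0.12, and leaving out CAR 1 brought LGCAR against CAR to 0.09. CAR against NG ran from 0.00 without NG 3 to 0.19 without CAR 1, and LG against NG from -0.01 without NG 3 to 0.15 without LG 3. Also without CAR 1, cariporide averaged over both glucose levels gave 0.20 with an edgeR adjusted p of 0.0461, against 0.14 and 0.349 with all libraries.

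Pseudogenes of the pair were thinly counted, with 13 to 31 counts for CHP1P2 and 6 to 18 for SLC9A7P1, beside 1367 to 1930 counts for CHP1 and 1277 to 2180 for SLC9A7. The coefficient of variation within groups was 11.8% for SLC9A7 and 10.1% for CHP1, where counting alone gives 2.43% and 2.48%. For EZR it was 2.80% and for MSN 2.27%, where counting gives 1.22% and 0.836%.

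**Figure D2:**
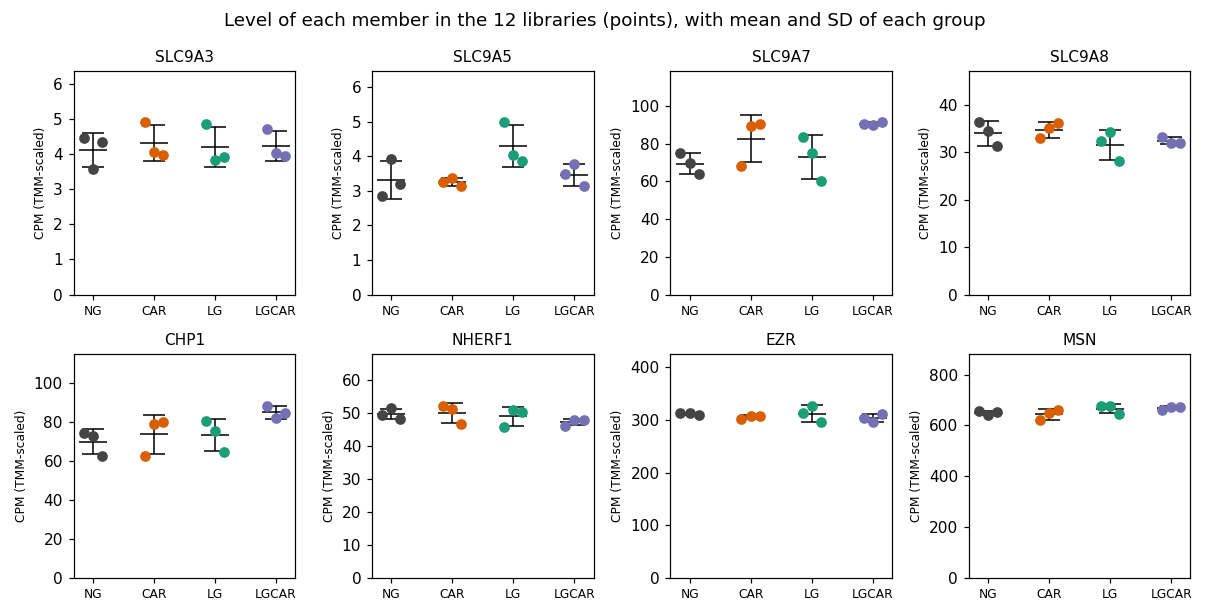
TMM-scaled CPM of each member (y axis, from 0) in the 3 libraries of each group (points), with the group mean (long bar) and SD (error bar). SLC9A7, CHP1 and MSN have LGCAR libraries above all NG libraries, where 38.2% of all genes have no overlap in either direction. EZR and MSN differ little between groups.

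SLC9A7 and CHP1 varied together over the 12 libraries. Across log2 CPM, Pearson's r was 0.92 and Spearman's rho 0.93 (permutation p = 2e-05 and 6e-05, two-sided, 100000 permutations, adjusted over the 28 pairs of members 0.00056 and 0.00168). The permutations shuffled all 12 libraries without regard to group, so these p-values do not allow for differences between groups. Without the 2 libraries farthest from the median of SLC9A7, LG 3 and NG 3, r was 0.87, and across the deviations from the group means it was 0.96. The other 27 pairs did not pass, and r over all pairs ran from -0.63 to 0.92. The pattern was common, since 13.6% of 10814 genes with a mean level of at least 5 CPM had r above 0.8 with SLC9A7. The most alike were TBC1D16 at r = 0.99, CRYBG3 at 0.99 and NR2C2 at 0.98, over 12 libraries. The values of a library share its depth and composition.

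**Figure D3:**
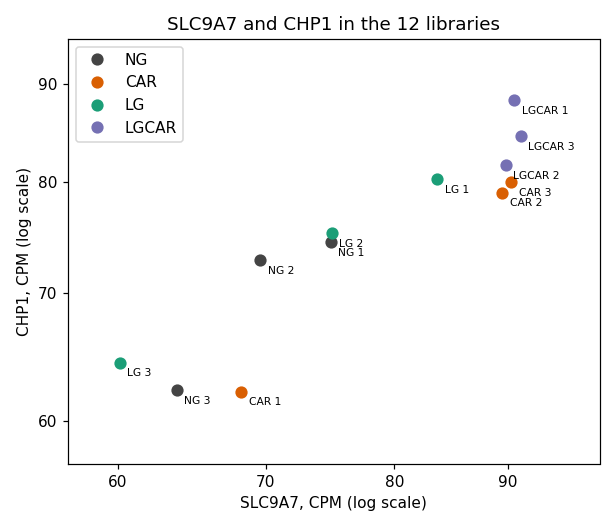
CHP1 against SLC9A7 in CPM, both on log axes, with 1 point for each of the 12 libraries, coloured by group. Low and high libraries of the pair coincide, from LG 3, NG 3 and CAR 1 at the lower left to the 3 LGCAR libraries at the upper right.

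Promoter sequences of SLC9A7 and CHP1 are shown because these members varied together, and all 8 members had an entry. They are the 250 bases before the RefSeq start (GRCh38.p14), 5′ to 3′ on the strand of the gene, with each GC box (GGGCGG or its reverse complement) in capitals. SLC9A7 is chrX:46759119-46759368 on the minus strand, and CHP1 is chr15:41231018-41231267 on the plus strand.
SLC9A7: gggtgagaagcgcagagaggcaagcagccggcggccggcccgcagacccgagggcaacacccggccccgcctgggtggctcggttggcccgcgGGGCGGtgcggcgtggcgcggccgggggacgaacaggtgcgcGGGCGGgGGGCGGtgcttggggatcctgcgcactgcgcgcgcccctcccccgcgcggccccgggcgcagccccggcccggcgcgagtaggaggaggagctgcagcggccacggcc
CHP1: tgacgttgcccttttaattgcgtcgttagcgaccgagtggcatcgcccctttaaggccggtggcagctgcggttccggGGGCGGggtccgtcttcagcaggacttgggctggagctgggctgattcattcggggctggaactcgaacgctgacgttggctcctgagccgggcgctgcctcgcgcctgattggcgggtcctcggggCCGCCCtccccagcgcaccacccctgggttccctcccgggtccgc
The first held 3 GC boxes at 81.2% G and C, and the second 2 GC boxes and 1 CCAAT at 68.0%. Of 35116 RefSeq promoters of that length, 42.6% held a GC box and 32.0% a CCAAT, counted on both strands. The E-box CACGTG, found in 6.34% of promoters, was in neither.

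The other exchangers had few counts or small differences. SLC9A3 (chromosome 5, 470456 to 524449, minus strand) was at 4.46, 3.58 and 4.34 CPM in NG libraries, 4.91, 4.08 and 3.98 in CAR, 4.85, 3.83 and 3.91 in LG and 4.72, 4.04 and 3.94 in LGCAR libraries. All 4 groups overlapped, and log2 fold changes between groups lay between -0.03 and 0.07. Of the exons of SLC9A3, 41.9% by length lie within another gene of the same strand, 14.9% opposite EXOC3 and 14.7% opposite SLC9A3-AS1. Use of the strand in counting is not stated, so the 72 to 125 counts of SLC9A3 per library may hold reads of its neighbours. SLC9A5 (chromosome 16, 67248979 to 67272191, plus strand), of which 10.5% overlaps FHOD1 on the other strand, was at 2.84, 3.92 and 3.19 CPM in NG and 3.26, 3.38 and 3.15 in CAR. LG had 4.98, 4.05 and 3.86 CPM and LGCAR 3.49, 3.76 and 3.14. All LG libraries were above every LGCAR library, and LG overlapped NG. Between LG and LGCAR, 21.3% of all tested genes had no overlap in either direction. The log2 fold change of SLC9A5 was 0.38 in LG against NG (SE 0.147, interval 1.05 to 1.61, edgeR adjusted p = 0.230) and -0.31 in LGCAR against LG (interval 0.647 to 0.9999, adjusted p = 0.419). Without LG 1 the latter was -0.20. With 59 to 119 counts per library, counting error alone was 11.4% against a coefficient of variation within groups of 11.8%.

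SLC9A8 (chromosome 20, 49812828 to 49892242, plus strand) was at 36.3, 34.4 and 31.2 CPM in NG libraries, 32.9, 35.1 and 36.1 in CAR, 32.3, 34.1 and 28.1 in LG and 33.2, 31.9 and 32.0 in LGCAR libraries. All groups overlapped, and log2 fold changes lay between -0.11 and 0.04, with edgeR adjusted p from 0.498 to 0.945. Of other genes of the family, SLC9A4 and SLC9C1 had no counts, and SLC9A2, SLC9A9, SLC9B1, SLC9B2 and SLC9C2 had at most 9 in a library and were not tested. No library had more than 6 counts of TESC, the cofactor related to CHP1, or any of CHP2.

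NHERF1 (chromosome 17, 74748628 to 74769353, plus strand) was at 49.4, 51.5 and 48.3 CPM in NG libraries, 52.2, 51.2 and 46.6 in CAR, 45.7, 51.0 and 50.2 in LG and 46.2, 47.8 and 48.0 in LGCAR libraries. All LGCAR libraries lay below all NG libraries, by a log2 fold change of -0.07, and over the 5 comparisons its edgeR adjusted p ran from 0.452 to 0.983. By length, 11.3% of the exons of NHERF1 lie opposite AC016888.1 on the other strand. EZR (chromosome 6, 158765748 to 158819368, minus strand) was at 313, 314 and 309 CPM in NG and 302, 307 and 308 in CAR, with every CAR library below every NG library by a log2 fold change of -0.03. LG had 313, 327 and 296 CPM of EZR and LGCAR 303, 297 and 311, and its edgeR adjusted p ran from 0.610 to 0.995. MSN (chromosome X, 65588377 to 65741931, plus strand) was at 658, 641 and 651 CPM in NG libraries, 621, 650.1 and 660.3 in CAR, 677, 678 and 645 in LG and 662, 674 and 674 in LGCAR libraries. The MSN log2 fold changes ran from -0.01 to 0.06, with edgeR adjusted p from 0.521 to 0.962. Its LGCAR libraries lay above all NG and all CAR libraries. No overlap of LGCAR with NG was found in 38.2% of all tested genes, of LGCAR with CAR in 25.3% and of CAR with NG in 9.11%. In all 4 groups MSN held 54.5% to 55.2% of the summed CPM per kilobase of the 3 linkers, EZR 31.9% to 33.3% and radixin (RDX) 12.2% to 12.9%. With the exon union MSN held 49.1% to 50.1%.

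Groups without overlap were counted over the 40 pairs of a member and a comparison, and 10 were found. The CAR against NG comparison held 1 of 8 members beside 9.11% of all genes, LGCAR against NG 4 beside 38.2%, LGCAR against LG 3 beside 21.3%, LGCAR against CAR 2 beside 25.3% and LG against NG 0 beside 19.4%. Median log2 fold changes of the members and of all genes were 0.04 and 0.01 in LGCAR against NG, 0.03 and 0.01 in LG against NG, and 0.02 and 0.00 in CAR against NG. The interval of the fold lay within 1.5-fold either way in 37 of the 40 pairs and within 2-fold in all. For single genes the widest bound was 1.10-fold for EZR, 1.11-fold for MSN, 1.15-fold for NHERF1, 1.20-fold for SLC9A8, 1.29-fold for SLC9A3, 1.42-fold for CHP1, 1.58-fold for SLC9A7 and 1.61-fold for SLC9A5.

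**Figure D4:**
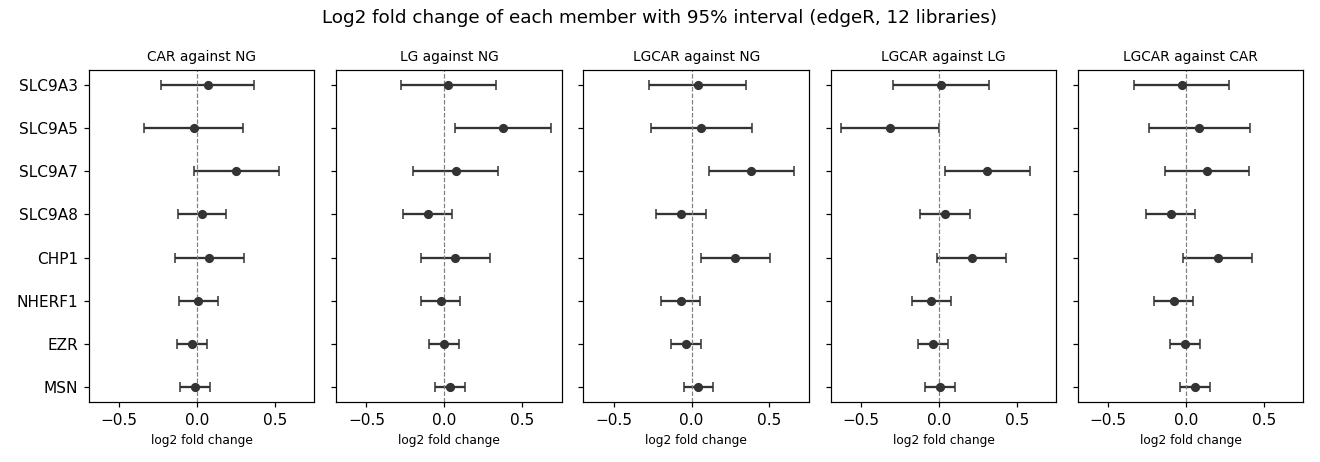
Log2 fold change (x axis) of each member in the 5 comparisons with its 95% interval (bars) from edgeR's quasi-likelihood fit to 12 libraries. Most points lie within 0.1 of zero, and the highest are SLC9A7 in LGCAR against NG and SLC9A5 in LG against NG, each at 0.38.

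Calls were made among the genes that act beside the members. The partners of the linkers and of the membrane scaffold form a list of 25 genes, of which 21 passed the filter, and 6 of these were called higher in 5 mM than in 10 mM glucose averaged over cariporide and none lower, where 5.30% of all genes were called higher and 4.43% lower. The median log2 fold change of the list was 0.09 against 0.01 for all genes. The list was chosen with earlier results of these data known, so its counts and median are a description and no independent test. Among the 6, PALS1, a scaffold of cell polarity, rose by a log2 fold change of 0.18 (edgeR adjusted p = 0.00655), and this call was kept in all 19 alternatives. SDC2, a membrane proteoglycan that binds linkers of this family, rose by 0.20 (edgeR adjusted p = 0.0183), and PODXL, a sialomucin bound by NHERF scaffolds, rose by 0.21 (adjusted p = 0.0200). PRKCA, a kinase that phosphorylates the linkers, rose by 0.19 (adjusted p = 0.0232). The call of SDC2 was lost in 3 of 19 alternatives, without NG 2, NG 3 or LGCAR 2 (adjusted p up to 0.0607). That of PODXL was lost in 5, without NG 3, LG 1, LG 2 or LGCAR 1 and without NG 1 and LGCAR 3 together (up to 0.0626). That of PRKCA was lost in 8, among them NG 2, NG 3, LG 1, LG 2, LGCAR 1 or LGCAR 3 left out (up to 0.0897) and the replicate block (0.0512). Of the 21 partners 3 were called with the block, 3 without NG 1 and LGCAR 3 together, and between 1 (without NG 3) and 6 with a library left out, with at most 2 without NG 2, LG 1, LG 2 or LGCAR 1. Members EZR and MSN themselves were not called.

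In LGCAR against NG 4 of the 21 partners were called higher and none lower, beside 4.63% and 4.12% of all genes: PALS1 at 0.20, PODXL at 0.28, PRKCA at 0.26 and SLK, a kinase of the linkers, at 0.27, with edgeR adjusted p of 0.0319, 0.0317, 0.0312 and 0.0326. SLK was named after its value was seen. With the replicate number as a block none of the 21 was called, and the edgeR adjusted p was 0.0583 for PALS1, 0.0517 for PODXL and 0.0617 for PRKCA. None was called either without NG 2, NG 3 or any LGCAR library. The calls of PALS1 and PODXL were each lost in 7 of 14 alternatives, and that of PRKCA in 8. For all 3 these included each LGCAR library, NG 2 and NG 3 left out in turn, and for PRKCA NG 1, with adjusted p up to 0.152, 0.154 and 0.133. PODXL was at 348 CPM in NG libraries, 365 in CAR, 402 in LG and 424 in LGCAR libraries. PALS1 was the 1 partner called in LGCAR against CAR, at 0.22 (edgeR adjusted p = 0.0391), where 0.973% of all genes were called higher and 0.675% lower, and that call was lost in 11 of 14 alternatives, the replicate block (0.0825) and each CAR or LGCAR library left out among them (edgeR adjusted p up to 0.187). No partner was called in the other comparisons.

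The second list held 36 cofactors, kinases, phosphatases and binding proteins of the exchangers, of which 32 passed the filter. HSPA8, a constitutive chaperone, fell by 0.36 on the log2 scale in LG against NG (edgeR adjusted p = 0.00516), as the 1 gene of the 32 called there, where 0.728% of all genes were called lower and 1% higher. It fell by 0.36 in LGCAR against NG (adjusted p = 0.00454). The mean level of HSPA8 was 1862 CPM in NG libraries, 1692 in CAR, 1452 in LG and 1452 in LGCAR libraries, and no alternative ended either call. Besides HSPA8, 4 genes of the 32 were called in LGCAR against NG: ARRB1 rose by 0.21 and PPP3CA by 0.23, and PPP2CA fell by 0.19 and CSNK2B by 0.22, with edgeR adjusted p from 0.0332 to 0.0497. Of all genes 4.63% were called higher in that comparison and 4.12% lower. With the replicate number as a block HSPA8 was the 1 gene called, at an edgeR adjusted p of 0.0117, while those of ARRB1, PPP2CA and PPP3CA were 0.0526, 0.0593 and 0.0718. The calls of ARRB1 and PPP3CA were lost in 9 of 14 alternatives each, with any NG or LGCAR library left out (adjusted p up to 0.155 and 0.193), and that of PPP2CA in 7, with any LGCAR library, NG 2 or NG 3 left out (up to 0.154). CSNK2B was named after its value was seen. With glucose averaged over cariporide, HSPA8 fell by 0.29 (edgeR adjusted p = 5.80e-04), a call kept in all 19 alternatives, and PPP3CA rose by 0.16 (adjusted p = 0.0396), a call lost in 12 of them, the replicate block included (0.0632). With glucose averaged, 5.30% of all genes were called higher and 4.43% lower. No gene of the second list was called in the other comparisons.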

How the data were processed

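RNA of MDA-MB-231 cells was sequenced in 12 libraries, 3 in each of 4 groups, after Trizol extraction and a directional NEBNext kit, per the labels' protocols. The counts per gene were deposited by the authors as 1 table for each library. The tools GATK, STAR, fastp and Salmon and the build GRCh38 stand in the submitters' processing notes, and which of them made the counts, in what version and whether by strand, is not stated. Groups were taken from the treatment label.

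From these counts, edgeR 4.0.16 in R 4.3.3 tested 15104 genes that passed filterByExpr, with TMM scaling, 1 mean per group and the robust quasi-likelihood test, adjusted by Benjamini and Hochberg over all tested genes. Standard errors were derived from the log2 fold change and the quasi-likelihood F statistic. The 95% fold intervals were built from these with the t distribution. CPM per kilobase used the principal transcript or the exon union of GENCODE 29. Alternatives were RLE and total scaling, no filter, DESeq2 1.42.0, fits to the groups compared, a replicate block, ribosomal RNA left out, NG 1 and LGCAR 3 left out, and each library left out. The test was tested on simulated data. Correlations used log2 CPM with a prior count of 2. Figures were drawn with matplotlib 3.10.9 in Python 3.11.15.

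Replicate numbers come from the labels, which tie them to no shared culture or day. Over genes, deviations from the group means of same-numbered libraries correlated above 0.1 in all 3 pairs of NG with LGCAR (0.14 to 0.47) and of NG with LG (0.15 to 0.18), and in 1 of the other 12 pairs. Same-numbered pairs of NG with CAR were negative (-0.27 to -0.18). The median was 0.016 over same-numbered pairs and 0.026 over the others. A library correlated best with its own number in 12 of 36 checks. A pairing by number was thus neither stated nor seen across all groups, and blocked values are given where they change a call.

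The members and lists were chosen with earlier results of these data known. All 8 members were named, and from each list up to 4 called genes with the smallest p, or the 2 with the smallest p where none was called. Some genes that this rule names are not reported here. For the member with the smallest p, the 3 genes most alike by Pearson's r over 12 libraries, from those averaging 5 CPM or more, were named.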

Additional observations from a re-analysis of the deposited data

How the results depend on the processing

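No member was called in the 8 comparisons. The number of members called moved from 0 in 3 of 127 pairs of a comparison and an alternative setting. It rose to 1 with DESeq2 in LGCAR against NG, and to 2 with only the NG and LGCAR libraries in that comparison. In cariporide averaged over both glucose levels it rose to 2 without CAR 1. Of 1016 values of a member, a comparison and a setting, 1011 stayed on the same side of the threshold and 5 passed it. None of the called values turned direction. Among uncalled values 85 changed sign, each from a log2 fold change of at most 0.073 in size in the main fit. With the replicate number as a block, no member was called, and the adjusted p of SLC9A7 and CHP1 in LGCAR against NG were 0.106 and 0.125 (edgeR). The block ended the calls of PALS1, PODXL and PRKCA and of ARRB1, PPP2CA and PPP3CA in LGCAR against NG, of PALS1 in LGCAR against CAR, and of PRKCA and PPP3CA with glucose averaged, and no other call of a gene the list rule named. Over all genes the counts of calls in LGCAR against NG were 1322 with all libraries, 682 with the block, 263 without NG 1 and LGCAR 3 and 3542 with the 2 groups alone, and ranged from 136 to 1544 with 1 library left out. In LG against NG the counts were 261, then 147 with the block, 87 and 118, and 83 to 364. LGCAR against CAR gave 249, then 135 with the block, 55, 351 with library totals, 391 with no filter, 424 with DESeq2 and 51 to 188. Cariporide averaged gave 1, then 26 with no filter, 27 with DESeq2 and 1 to 1300, the highest without CAR 1. Glucose averaged gave 1469, then 926 without NG 1 and LGCAR 3 and 742 to 2435, and 1024 with the block. LGCAR against LG gave 1, then 15 with no filter, 20 with DESeq2, 2 without NG 1 and LGCAR 3 and 1 to 3. The interaction gave 1, then 2 with no filter, 4 with DESeq2, 2 without NG 1 and LGCAR 3 and 1 to 3, and CAR against NG 0, then 1 with DESeq2, 2 without NG 1 and LGCAR 3 and 0 to 2. The cause of these shifts was not tested. At 59 to 125 counts per library, SLC9A3 and SLC9A5 were limited by counting error.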
